A study of Mus musculus with 16 samples.

Results

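The 9 genes described here are markers of resident Kupffer cells, the macrophages that live in the sinusoids of the liver: Clec4f, Timd4, Vsig4, Marco, Cd5l, Cd163, Adgre1, Csf1r and Folr2. They were chosen by gene symbol, with earlier results of these data known, and are 9 of the 17410 genes in the tables. Whole-liver RNA of 16 mouse samples, 4 per group, was sequenced in a pair of experiments. Both concern ChREBPα, a product of the gene Mlxipl and a transcription factor that answers to sugar.

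In the deletion experiment all 8 mice were Chrebpα-flox/flox and ate a NASH diet for 12 weeks, which held 40% of calories as fat (palm oil is named), 20% as fructose, and 2% cholesterol. WT_NASH (livers 17 to 20) received AAV-TBG-GFP, and LKO_NASH (livers 21 to 24) received AAV-TBG-Cre. TBG is a promoter active in hepatocytes, so Cre was directed to hepatocytes and not to the macrophages that carry these markers. Their age is not given in the sources used. In the overexpression experiment 2-month-old wildtype mice ate the HFLMCD diet, labelled as 3 weeks, with 45% of calories as fat, no choline, and 0.1% added methionine. Adenovirus followed 1 week before dissection. It carried GFP in Ad_GFP_HFLMCD (livers 9 to 12) and Chrebpα in Ad_Chrebpa_HFLMCD (livers 13 to 16). The targeted gene did not separate the groups of either experiment: the edgeR log2 fold change of Mlxipl was 0.05 in LKO_NASH (adjusted p = 0.916) and 0.15 in Ad_Chrebpa_HFLMCD (adjusted p = 0.241), on totals over all its transcripts. The deleted exon is not named in the labels, and vector reads may not be counted as Mlxipl, so these totals check the labels only weakly.

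Kupffer cells are seeded before birth and renew themselves in place. They clear bacteria, aged red blood cells and dying cells from portal blood, and in steatohepatitis they can be lost and replaced by macrophages that derive from blood monocytes. Such newcomers take up part of the resident programme with time, and Timd4 appears late in them. Of the 9 genes, Clec4f, Timd4, Vsig4 and Cd5l are largely restricted to resident cells in the mouse liver, whereas Adgre1 (the F4/80 antigen) and Csf1r are expressed by monocyte-derived macrophages as well. The factors PU.1 and MAF, which bind DNA, are among those that maintain macrophage identity.

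Promoter sequences were at hand for 7 of the 9 genes in a RefSeq promoter table of build GRCm38.p6 (all but Adgre1 and Csf1r), with 2 start sites for Folr2 and therefore 8 promoters. In the 250 bases before each start, 3 letter strings were searched on both strands: GAGGAA (a PU.1 core), TGCTGA (a MAF half-site) and CACGTG (an E-box of the kind that ChREBP and related factors bind). None of these strings overlaps another in the sequences printed here. The PU.1 core was present in 3 of the 8 promoters, against 23.3% of all 32851 promoters in the table. The MAF half-site was present in 5 of the 8, against 16.1% of all. The E-box was present in 0 of the 8, against 6.02% of all. These are matches of letters, not measured binding. Clec4f and Timd4 are shown because their ratio is tested further on, and Vsig4 and Cd5l because they are 2 of the 3 markers with a PU.1 core. Each run is written 5′ to 3′ on the strand of the gene, with capitals for a PU.1 core or a MAF half-site on either strand.
Clec4f, chr6:83656117-83656366, minus strand: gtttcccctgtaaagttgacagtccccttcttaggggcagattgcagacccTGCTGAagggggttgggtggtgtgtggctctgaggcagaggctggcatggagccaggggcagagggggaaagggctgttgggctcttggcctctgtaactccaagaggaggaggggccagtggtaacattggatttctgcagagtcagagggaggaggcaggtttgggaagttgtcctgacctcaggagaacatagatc
Timd4, chr11:46810549-46810798, plus strand: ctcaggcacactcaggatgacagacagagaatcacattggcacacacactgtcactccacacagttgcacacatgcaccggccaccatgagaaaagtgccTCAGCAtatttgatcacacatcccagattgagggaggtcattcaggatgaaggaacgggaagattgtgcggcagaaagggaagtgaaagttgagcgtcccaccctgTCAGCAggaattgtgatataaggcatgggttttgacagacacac
Vsig4, chrX:96293439-96293688, minus strand: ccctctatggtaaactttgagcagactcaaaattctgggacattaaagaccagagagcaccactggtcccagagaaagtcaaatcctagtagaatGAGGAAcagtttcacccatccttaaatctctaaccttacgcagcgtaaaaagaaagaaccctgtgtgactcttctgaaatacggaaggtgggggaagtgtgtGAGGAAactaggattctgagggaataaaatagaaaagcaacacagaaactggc
Cd5l, chr3:87357631-87357880, plus strand: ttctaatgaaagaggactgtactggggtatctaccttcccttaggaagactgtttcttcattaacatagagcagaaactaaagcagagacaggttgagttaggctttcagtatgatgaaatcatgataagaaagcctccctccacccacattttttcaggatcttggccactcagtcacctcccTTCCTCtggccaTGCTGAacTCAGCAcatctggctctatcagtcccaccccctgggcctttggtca

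Clec4f and Folr2 held 1 MAF half-site in each promoter and no PU.1 core. Timd4 held 2 MAF half-sites, both on the opposite strand. Vsig4 held 2 PU.1 cores, Marco held 1, and Cd5l held 1 PU.1 core and 2 MAF half-sites. Cd163 held 0 matches to any of the 3 strings.

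All 9 genes were detected in all 16 livers and passed the filter on low counts in every comparison. Libraries held 21254937 to 40327264 expected counts. The labels do not state that each sample is a separate animal, so each p-value rests on the spread between samples, which may be technical. In whole liver, fewer cells of a type and less RNA per cell cannot be told apart. Values are FPKM, in which a count is divided by transcript length and library size so that genes can be compared, unless CPM (counts divided by library size alone) is named.

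Cd5l, a secreted protein of the scavenger receptor cysteine-rich family, had the highest mean FPKM of the 9 genes in each of the 4 groups. Its mean was 25.3 in WT_NASH and 45.7 in LKO_NASH, and it was 162 and 112 in Ad_GFP_HFLMCD and Ad_Chrebpa_HFLMCD. In WT_NASH, Clec4f (mean 16.8), Vsig4 (10.0), Csf1r (8.36) and Folr2 (6.14) followed, and each overlapped its neighbour in that order. Folr2 stood apart from the lower set of Adgre1 (2.53), Cd163 (2.05), Marco (1.81) and Timd4 (1.44), whose neighbours overlapped. LKO_NASH differed in that Csf1r (14.8) stood above Vsig4 (13.3) and Marco (3.47) above Cd163 (1.81), in pairs that overlapped, and every neighbouring pair overlapped. In the HFLMCD groups Csf1r came second, at 63.4 and 47.0, and did not overlap Cd5l. Clec4f, Vsig4, Adgre1, Marco and Folr2 followed there in that order, each overlapping the next. Timd4 and Cd163 came last in the HFLMCD groups, below Folr2 without overlap, with means of 0.925 and 0.552 in Ad_GFP_HFLMCD and 1.5 and 0.71 in Ad_Chrebpa_HFLMCD.

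**Figure D1:**
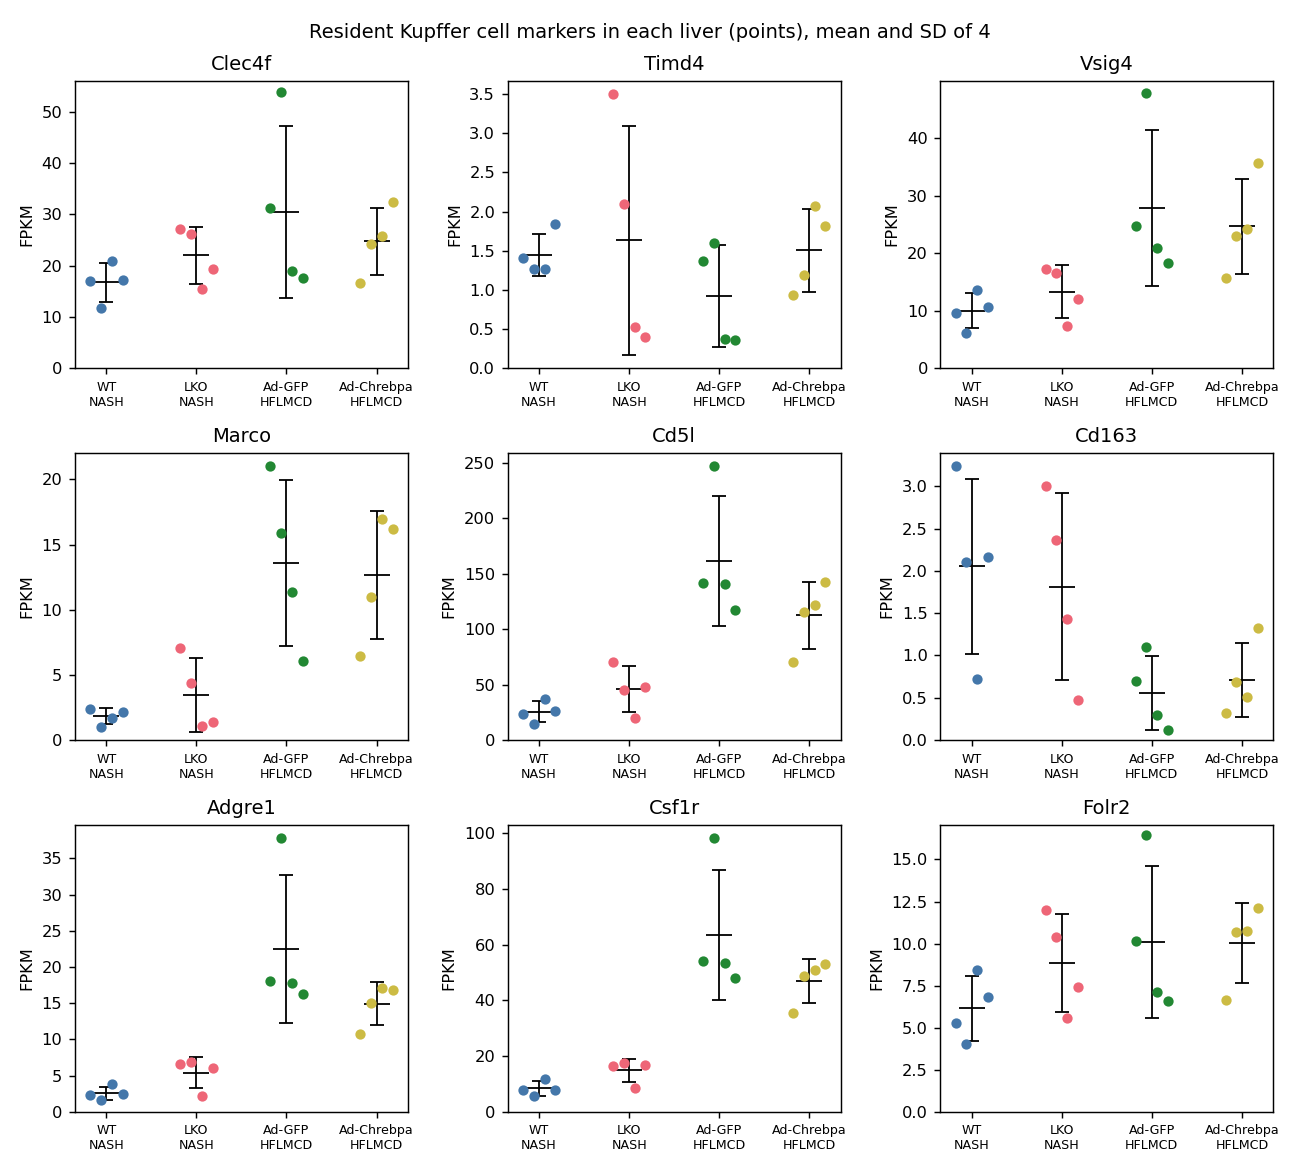
FPKM of each marker (vertical axis, linear, a separate scale per gene) in each liver (points) of the 4 groups, with horizontal bars for the mean and the SD of 4. The mean FPKM of every marker but Timd4 and Cd163 is lower in both NASH groups than in both HFLMCD groups. On this scale the median gene is also lower in WT_NASH than in Ad_GFP_HFLMCD. Single livers such as the Ad_GFP_HFLMCD liver with 98.4 for Csf1r widen the spread.

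Deletion of ChREBPα in hepatocytes under the NASH diet was compared first. None of the 9 markers passed the test: 0 of 9 were called, beside 0% of the 12786 tested genes, at a Benjamini-Hochberg adjusted p of edgeR's quasi-likelihood test below 0.05. At an unadjusted p below 0.05 edgeR had 2 of the 9, Adgre1 and Csf1r, beside 13.6% of all tested genes, and DESeq2 called 158 genes of which 0 were markers. The log2 fold change was positive for 8 of the 9, with a median of 0.38 beside 0.01 over all tested genes. On TMM-scaled CPM, 0 of the 9 had groups that did not overlap, beside 2.69% of all genes with LKO_NASH higher and 3.38% with it lower. The FPKM scale lies higher in LKO_NASH. On it 886 tested genes did not overlap with LKO_NASH higher and 86 with it lower. The median log2 fold change of all genes was 0.102 with limma on log2(FPKM + 1). The FPKM values per liver that follow carry this shift.

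Adgre1 (NCBI gene 13733), an adhesion G protein-coupled receptor, had FPKM values of 2.25, 1.62, 3.78 and 2.45 in WT_NASH livers 17 to 20. The LKO_NASH livers 21 to 24 had 6.56, 6.85, 2.17 and 6.0. Livers 21, 22 and 24 were above all 4 controls and liver 23 was among them. The means were 2.53 ± 0.908 (SD, n = 4) and 5.39 ± 2.18 (SD, n = 4), and the edgeR log2 fold change was 0.94 (SE 0.35, 95% interval 0.15 to 1.72, adjusted p = 0.356).

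Csf1r (NCBI gene 12978), the receptor for the macrophage growth factors CSF1 and IL-34, had 7.82, 5.76, 11.9 and 7.94 in livers 17 to 20. In livers 21 to 24 it had 16.3, 17.6, 8.45 and 16.9. The pattern was that of Adgre1, with liver 23 alone inside the control range. Its edgeR log2 fold change was 0.67 (SE 0.25, 95% interval 0.11 to 1.24, adjusted p = 0.356).

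Cd5l (NCBI gene 11801) had 23.6, 14.2, 37.2 and 26.2 in livers 17 to 20, and 70.3, 44.9, 19.6 and 47.9 in livers 21 to 24. Again livers 21, 22 and 24 were above every control and liver 23 was not. The edgeR log2 fold change was 0.71 (SE 0.37, adjusted p = 0.411). Marco (NCBI gene 17167), a scavenger receptor for bacteria and particles, had 2.38, 0.99, 1.71 and 2.17 in livers 17 to 20. It had 7.08, 4.39, 1.05 and 1.35 in livers 21 to 24, so that only livers 21 and 22 were above the controls. Its edgeR log2 fold change of 0.81 (SE 0.58, adjusted p = 0.509) was 0.16 without liver 21.

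Clec4f (NCBI gene 51811), a C-type lectin that marks Kupffer cells in the mouse, had 17.1, 11.8, 21.0 and 17.2 in livers 17 to 20 and 27.1, 26.1, 15.5 and 19.3 in livers 21 to 24. The groups overlapped, with a log2 fold change of 0.25 (SE 0.21, edgeR adjusted p = 0.56, 95% interval -0.22 to 0.73). Vsig4 (NCBI gene 278180), a complement receptor that captures opsonised bacteria, had 9.55, 6.17, 13.6 and 10.7 against 17.2, 16.6, 7.36 and 12.1, a log2 fold change of 0.27 (SE 0.29, edgeR adjusted p = 0.645). Folr2 (NCBI gene 14276), a folate receptor, had 5.28, 4.03, 8.45 and 6.80 against 12.0, 10.4, 5.59 and 7.41, a log2 fold change of 0.38 (SE 0.28, edgeR adjusted p = 0.514). In these genes livers 21 and 22 were above all controls, and livers 23 and 24 were inside the control range.

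Timd4 (NCBI gene 276891), a phosphatidylserine receptor for the uptake of dying cells, had 1.41, 1.27, 1.26 and 1.84 in livers 17 to 20. In livers 21 to 24 it had 3.50, 2.10, 0.53 and 0.40, so that 2 LKO_NASH livers lay above the control range and 2 below it. The control values spanned 1.46-fold and the LKO_NASH values 8.75-fold. The edgeR log2 fold change was 0.06 (SE 0.60, adjusted p = 0.966), with counts of only 25 to 219 in the LKO_NASH livers. The sign was not stable: limma-voom gave -0.49, and edgeR gave -0.66 without liver 21, -0.01 without liver 19 and -0.07 without liver 22.

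Cd163 (NCBI gene 93671), the scavenger receptor for haptoglobin-bound haemoglobin, had 3.24, 2.10, 0.72 and 2.16 in livers 17 to 20. It had 3.00, 2.36, 1.43 and 0.47 in livers 21 to 24. The groups overlapped almost fully, with a log2 fold change of -0.31 (SE 0.58, edgeR adjusted p = 0.793). Cd163 was the only marker with a negative fold change in this comparison, and it was 0.03 without liver 17 and 0.02 without liver 24.

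The low and high livers were shared between the markers. Liver 18 was the lowest of WT_NASH in 7 of the 9 genes and liver 23 the lowest of LKO_NASH in the same 7 genes, namely all but Timd4 and Cd163. These were the libraries with the fewest counts of their groups, 21254937 and 21569511. Timd4 and Cd163 were lowest in livers 19 and 24, at depths of 40327264 and 32110154. Liver 21 was the highest of LKO_NASH in 7 of the 9 genes. The part of depth in these differences was not tested.

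None of the genes in the other lists was called by the main edgeR fit in this comparison either, and their medians went both ways. Some were called in other edgeR runs, which are given under the other observations. All 18 other tissue macrophage genes had a positive fold change (median 0.71, 0 called), with Cd68, a lysosomal glycoprotein of macrophages, at 0.88 (SE 0.28, edgeR adjusted p = 0.342). At an unadjusted p below 0.05 edgeR had 12 of these 18, beside 13.6% of all tested genes. Of 14 tested genes of recruited and lipid-associated macrophages 12 were positive (median 0.82), with Itgax, the integrin CD11c, at 1.54 (edgeR adjusted p = 0.327). Their summed FPKM was 47.8 to 109 in WT_NASH and 59.5 to 125 in LKO_NASH. Ptprc, the CD45 antigen of all leukocytes, was 0.78 (edgeR adjusted p = 0.343), and the median of 5 tested T and NK cell markers was 0.92, led by Cd3e, a chain of the T cell receptor complex, at 1.45 (edgeR adjusted p = 0.31). Of 9 hepatocyte markers 8 were negative (median -0.30), with Ahsg, a plasma protein, at -0.66 (edgeR adjusted p = 0.34, but 0.0449 in DESeq2). The medians were -0.11 for neutrophil markers, -0.20 for cholangiocyte markers and 0.04 for stellate cell markers. The part of these other cell types in the marker values was not tested.

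**Figure D2:**
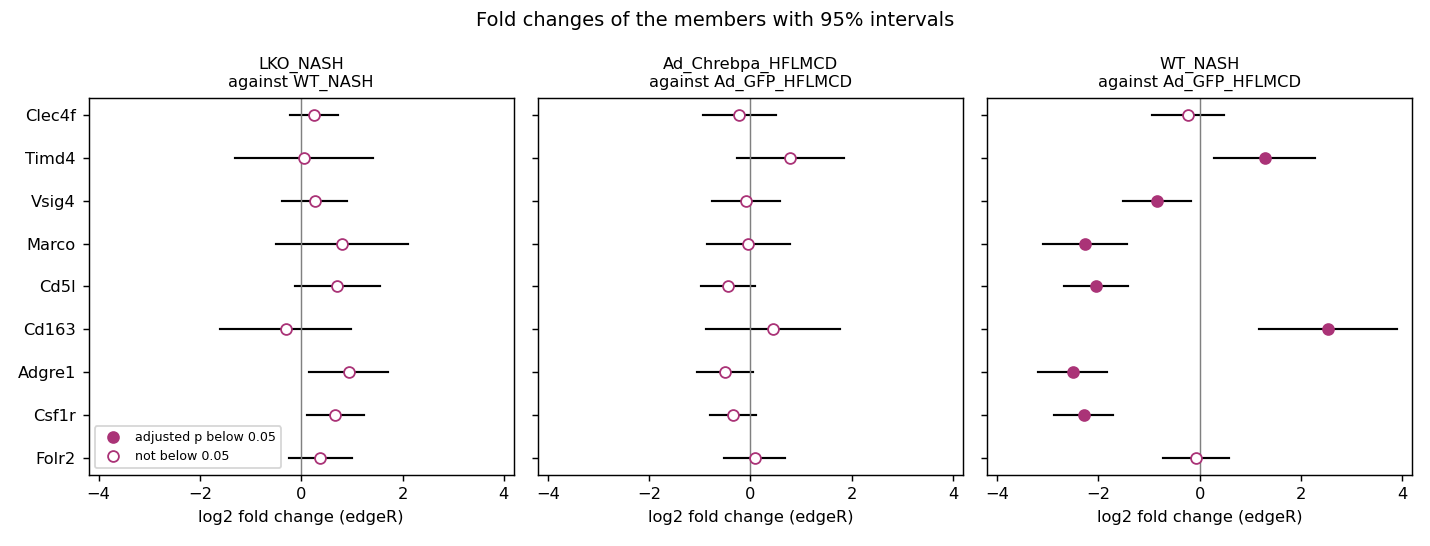
Log2 fold change of each marker (horizontal axis, edgeR, bars for 95% intervals) in the deletion, overexpression and control-group comparisons; filled points have an adjusted p below 0.05. The first 2 panels hold 0 filled points of 9, and the third holds 7, with Timd4 and Cd163 to the right of 0 and 5 others to the left.

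Overexpression of Chrebpα under the HFLMCD diet was compared next. Again 0 of the 9 markers were called by edgeR, beside 8.13% of the 13658 tested genes, and 0 had an unadjusted p below 0.05, beside 26.5% of all. DESeq2 and limma-voom also called 0. Of the 9 fold changes 3 were positive and 6 negative, with a median of -0.09 beside -0.01 over all tested genes. None had groups that did not overlap in TMM-scaled CPM, beside 9.75% of all genes with Ad_Chrebpa_HFLMCD higher and 6.93% with it lower. The FPKM scale lies lower in Ad_Chrebpa_HFLMCD. On it 664 tested genes did not overlap with that group higher and 1983 with it lower.

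Adgre1 had 18.1, 37.9, 17.9 and 16.2 in Ad_GFP_HFLMCD livers 9 to 12, and 10.7, 15.0, 17.1 and 16.8 in Ad_Chrebpa_HFLMCD livers 13 to 16. Liver 10 was far above the other 3 controls, which were close to livers 14 to 16. The edgeR log2 fold change was -0.51 (SE 0.25, 95% interval -1.06 to 0.04, adjusted p = 0.216), and -0.17 without liver 10. Csf1r had 53.9, 98.4, 53.6 and 47.8 against 35.4, 48.8, 51.0 and 52.9, a log2 fold change of -0.35 (SE 0.20, edgeR adjusted p = 0.3), and -0.09 without liver 10. Cd5l had 141.6, 247, 140.3 and 117 against 69.9, 115.6, 121.7 and 142, a log2 fold change of -0.45 (SE 0.24, edgeR adjusted p = 0.266), and -0.19 without liver 10. In all 3 genes liver 10 was the highest and liver 13 the lowest of the 8.

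Clec4f had 31.4, 54.0, 19.0 and 17.7 in livers 9 to 12 and 16.5, 24.2, 25.8 and 32.5 in livers 13 to 16. Its log2 fold change was -0.22 (SE 0.32, edgeR adjusted p = 0.713) and turned to 0.18 without liver 10. Vsig4 had 24.7, 47.9, 20.8 and 18.3 against 15.8, 23.1, 24.3 and 35.8, with -0.09 (SE 0.30, edgeR adjusted p = 0.874) that turned to 0.27 without liver 10. The groups overlapped in both genes. Vsig4 also turned positive without liver 13, at 0.06.

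Folr2 had 10.1, 16.5, 7.12 and 6.60 in livers 9 to 12 and 6.64, 10.7, 10.7 and 12.1 in livers 13 to 16, a log2 fold change of 0.08 (SE 0.27, edgeR adjusted p = 0.887). Marco had 21.0, 15.9, 11.3 and 6.08 against 6.46, 11.0, 17.0 and 16.2, a log2 fold change of -0.04 (SE 0.37, edgeR adjusted p = 0.96). Cd163 had 0.70, 1.10, 0.29 and 0.12 against 0.32, 0.69, 0.51 and 1.32, a log2 fold change of 0.44 (SE 0.59, edgeR adjusted p = 0.68) over counts of 20 to 178. The groups overlapped in each of these 3 genes.

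Timd4 had 1.37, 1.60, 0.37 and 0.36 in livers 9 to 12 and 0.94, 1.19, 2.07 and 1.82 in livers 13 to 16. Livers 11 and 12 were below all 4 Ad_Chrebpa_HFLMCD livers and livers 9 and 10 were among them. The edgeR log2 fold change was 0.78 (SE 0.47, 95% interval -0.27 to 1.84, adjusted p = 0.325). This was the largest fold change of the 9 markers in this comparison and was not called.

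Because Timd4 is a late marker and Clec4f a general one, their ratio within a liver was compared, which removes a shift common to both genes. The Timd4 to Clec4f ratio of FPKM was 0.0437, 0.0297, 0.0195 and 0.0204 in Ad_GFP_HFLMCD livers 9 to 12. It was 0.0568, 0.0492, 0.0801 and 0.0560 in Ad_Chrebpa_HFLMCD livers 13 to 16. All 4 livers with Chrebpα virus were above all 4 GFP livers. The log2 ratio was -4.07 ± 0.30 (SD, n = 4) against -5.22 ± 0.54 (SD, n = 4), a difference of 1.15 or 2.22-fold. The two-sided exact permutation p was 0.0286, the smallest that 4 against 4 can give, and 0.0571 after Benjamini-Hochberg adjustment over the 2 ratios tested, which does not pass 0.05. The test of this ratio was chosen with earlier results of these data known, which the adjustment does not cover. Timd4 counts were low in this group, from 27 to 113 in the Ad_GFP_HFLMCD livers.

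In the NASH experiment the same ratio was 0.0826, 0.108, 0.06 and 0.107 in WT_NASH livers 17 to 20. In LKO_NASH livers 21 to 24 it was 0.129, 0.0804, 0.0342 and 0.0207, above, within and below the control range. The log2 ratio was -4.26 ± 1.19 (SD, n = 4) against -3.52 ± 0.40 (SD, n = 4), a difference of -0.74 with a two-sided exact permutation p of 0.314 (adjusted 0.314). The wide spread was that of Timd4, since Clec4f spanned only 1.75-fold over the same 4 livers.

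**Figure D3:**
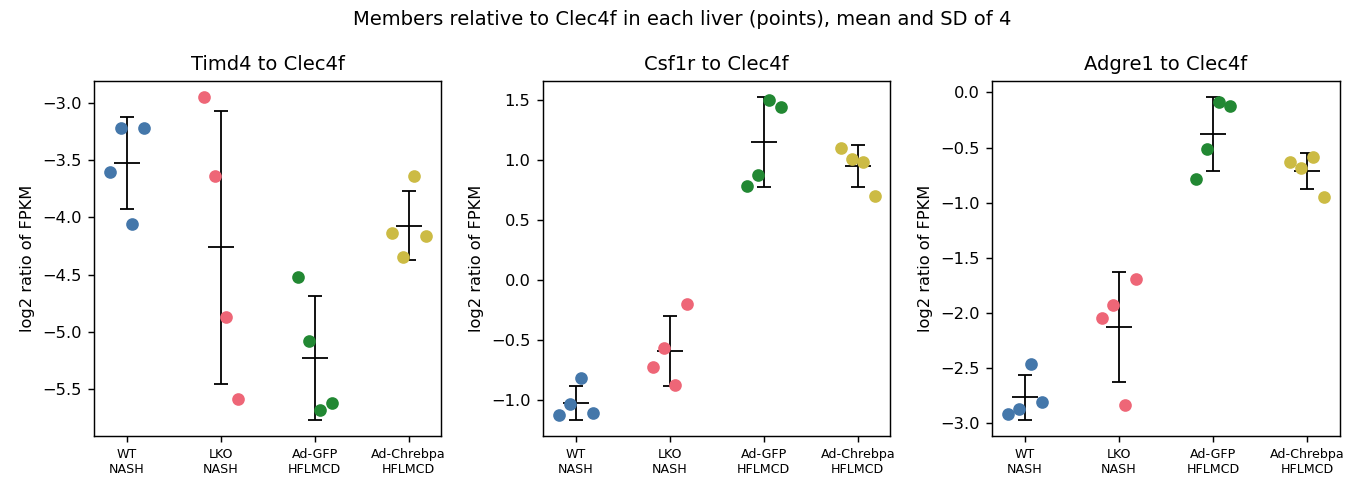
Log2 ratio of the FPKM of Timd4, Csf1r and Adgre1 to that of Clec4f (vertical axes) in each liver (points) of the 4 groups, with the mean and SD of 4. Timd4 to Clec4f does not overlap between the HFLMCD groups, whose means are -5.22 and -4.07, and Csf1r and Adgre1 stand higher against Clec4f in the HFLMCD groups than in the NASH groups.

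Between the HFLMCD groups edgeR called 4.95% of all genes higher and 3.18% lower. Of 15 recruited and lipid-associated macrophage genes 10 had a positive and 5 a negative edgeR fold change, with a median of 0.12. In either direction 6 had an unadjusted p below 0.05 in edgeR, beside 26.5% of all tested genes. From this list 2 were called higher by edgeR: Mmp12, a macrophage elastase, at 0.37 (SE 0.08, adjusted p = 0.0223) and Itgax at 0.40 (SE 0.10, adjusted p = 0.0454). Neither passed with limma on log2(FPKM + 1) (0.29 and 0.31, adjusted p = 0.0631 and 0.111) or in edgeR with all 16 livers in 1 fit (adjusted p = 0.798 and 0.514). The edgeR call of Mmp12 was also lost without liver 9, 11, 15 or 16. That of Itgax was lost without liver 9, 11, 12, 14, 15 or 16, and with a filter on a mean FPKM of at least 0.5 in 1 group in place of the count filter (adjusted p = 0.0513). Their list summed to 728 to 1110 FPKM in Ad_GFP_HFLMCD and 761 to 1040 in Ad_Chrebpa_HFLMCD. None of 18 other tissue macrophage genes and none of 8 Kupffer cell transcription factors was called by edgeR, though 2 of each had an unadjusted p below 0.05. The lowest p among them had C1qa, a complement subunit, at -0.38 (adjusted p = 0.113) and Id3, a regulator of Kupffer cell identity, at -0.52 (adjusted p = 0.126). Of 13 tested genes of the Kupffer cell niche 1 fell, the Notch ligand Jag1, at -0.63 (SE 0.13, edgeR adjusted p = 0.0191). Its call was lost with all 16 livers in 1 edgeR fit (adjusted p = 0.127) and without liver 13 or 16 (adjusted p = 0.0577 and 0.0608).

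Among markers of other cells in the same comparison, 5 of 6 cholangiocyte genes fell (median -1.08), with Krt19, a duct keratin, at -1.22 (edgeR adjusted p = 0.00799) and the chloride channel Cftr at -2.51 (edgeR adjusted p = 0.0131). With all 16 livers in 1 edgeR fit Krt19 was -1.21 and not called (adjusted p = 0.233). The list's summed FPKM was 9.30 to 17.2 in Ad_GFP_HFLMCD and 5.29 to 6.97 in Ad_Chrebpa_HFLMCD. Siglech, of plasmacytoid dendritic cells, was higher at 1.16 (edgeR adjusted p = 0.0346), and Jchain, of plasma cells, at 2.09 (edgeR adjusted p = 0.00217). They were the only called genes of 8 dendritic cell and 6 tested B cell markers, beside 4.95% of all genes called higher. The call of Siglech was lost with limma-voom (adjusted p = 0.0554), with limma on log2(FPKM + 1) (adjusted p = 0.0532) and in edgeR without liver 9, 10, 11, 12, 13, 15 or 16. Blvrb, a biliverdin reductase gene, was higher at 0.40 (edgeR adjusted p = 0.00982), and so was Apoa1, the main protein of HDL, at 0.33 (edgeR adjusted p = 0.0423). Each was the only called gene of its list, of 8 haemoglobin and iron genes and 9 hepatocyte markers. The call of Apoa1 was lost with limma on log2(FPKM + 1) and log2(FPKM + 0.1) (adjusted p = 0.0858 and 0.079), with all 16 livers in 1 edgeR fit (adjusted p = 0.177) and without liver 10, 11, 12, 13, 15 or 16. Ptprc was -0.07 (edgeR adjusted p = 0.818).

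The 2 control groups were then set against each other, WT_NASH against Ad_GFP_HFLMCD. They differ at once in diet, its length, the virus and the floxed allele, whose parts cannot be told apart, and each group also serves as the control of its own experiment. Age may differ too, since it is given as 2 months for the HFLMCD mice and is not given for the NASH mice. Of the 9 markers 7 were called by edgeR, 2 higher in WT_NASH and 5 lower, beside 59.1% of the 13488 tested genes (28.2% higher and 30.9% lower). On the FPKM scale the median log2 fold change of all genes was -0.440 with limma on log2(FPKM + 1), and the share of calls that were higher went from 47.7% with edgeR to 6.98%. The per-liver values of this comparison are therefore given as CPM scaled by TMM over the 16 livers, values that keep the middle of the genes level, and are not for comparing genes.

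Adgre1 and Csf1r, which other macrophages share, were lower in WT_NASH. Adgre1 had 9.98, 6.99, 15.5 and 9.77 CPM in WT_NASH livers 17 to 20, and 48.9, 95.9, 47.3 and 42.9 in Ad_GFP_HFLMCD livers 9 to 12, a log2 fold change of -2.51 (SE 0.31, edgeR adjusted p = 8.09e-05). Csf1r had 41.3, 29.6, 58.2 and 37.8 against 174, 298, 170 and 151, at -2.29 (SE 0.26, edgeR adjusted p = 4.78e-05). In both genes every WT_NASH liver was below every Ad_GFP_HFLMCD liver.

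Marco had 6.42, 2.62, 4.27 and 5.27 CPM in livers 17 to 20 and 34.5, 24.5, 18.3 and 9.80 in livers 9 to 12, at -2.27 (SE 0.37, edgeR adjusted p = 0.000528). Cd5l had 64.9, 38.0, 94.8 and 64.9 against 238, 391, 232 and 193, at -2.05 (SE 0.29, edgeR adjusted p = 0.000191). Neither overlapped between the groups. Vsig4 had 18.4, 11.5, 24.3 and 18.5 against 29.0, 52.8, 24.0 and 21.0, at -0.84 (SE 0.30, edgeR adjusted p = 0.0334). Its groups overlapped, and the call was lost without liver 10, 17, 18 or 20, with a fold change of -0.48 and an adjusted p of 0.0881 in edgeR without liver 10. It was also lost with limma-voom (-0.74, adjusted p = 0.0581).

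Clec4f and Folr2 were close to level by this scale. Clec4f ran from 37.3 to 63.2 CPM in WT_NASH (median 52.9) and from 34.5 to 101 in Ad_GFP_HFLMCD (median 49.7), a log2 fold change of -0.23 (SE 0.32, 95% interval -0.94 to 0.48, edgeR adjusted p = 0.554). Folr2 ran from 5.63 to 11.4 (median 8.31) and from 5.71 to 13.8 (median 7.64), at -0.08 (SE 0.30, 95% interval -0.73 to 0.58, edgeR adjusted p = 0.84). Without liver 10 the values turned to 0.17 and 0.24. With limma on log2(FPKM + 1) they were -0.71 and -0.59, against the -0.440 of the median gene, and neither was called.

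Timd4 and Cd163 went the other way. Cd163 had 19.7, 12.3, 4.05 and 11.8 CPM in livers 17 to 20, and 2.65, 3.89, 1.05 and 0.479 in livers 9 to 12, at 2.53 (SE 0.61, edgeR adjusted p = 0.00518). The lowest WT_NASH liver and the highest Ad_GFP_HFLMCD liver lay close together, at 4.05 and 3.89. Timd4 had 4.18, 3.66, 3.46 and 4.90 against 2.50, 2.74, 0.689 and 0.658, at 1.28 (SE 0.45, edgeR adjusted p = 0.032). These were the 2 markers whose groups did not overlap with WT_NASH higher, beside 28.7% of all genes, and 4 markers did not overlap with WT_NASH lower, beside 27.5% of all. Cd163 kept its call in every alternative run, whereas that of Timd4 was lost without liver 11, 12, 17 or 20. Timd4 was also not called with limma on log2(FPKM + 1) (0.40, adjusted p = 0.109) or log2(FPKM + 0.1) (0.83, adjusted p = 0.0982), or with all 16 livers in 1 edgeR fit (1.33, adjusted p = 0.0695).

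Ratios of Csf1r and Adgre1 to Clec4f show the contrast of these genes per length and within each liver. They were chosen after the values were seen and are given without a test. Csf1r was 0.458 to 0.567 times Clec4f in WT_NASH and 0.545 to 0.873 times in LKO_NASH. With Ad_GFP_HFLMCD it was 1.72 to 2.83 times Clec4f, and with Ad_Chrebpa_HFLMCD 1.63 to 2.14 times. Adgre1 was 0.132 to 0.18 times Clec4f in WT_NASH and 0.14 to 0.31 times in LKO_NASH. With Ad_GFP_HFLMCD it was 0.578 to 0.942 times, and with Ad_Chrebpa_HFLMCD 0.517 to 0.663 times. For both genes no NASH liver reached the lowest HFLMCD liver. Cd163, likewise without a test, was 0.0343 to 0.19 times Clec4f in WT_NASH and 0.0243 to 0.111 times in LKO_NASH. Its ratio was 0.00679 to 0.0223 in Ad_GFP_HFLMCD and 0.0193 to 0.0406 in Ad_Chrebpa_HFLMCD, so that NASH and HFLMCD livers overlapped.

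Macrophage and leukocyte lists were lower in WT_NASH in the same comparison, in which edgeR called 30.9% of all tested genes lower and 28.2% higher. All 18 other tissue macrophage genes fell by edgeR (median -2.49), with Cd68 at -3.29 (adjusted p = 1.23e-06) and the haem-degrading enzyme Hmox1 at -2.50 (adjusted p = 9.5e-07). Of 15 recruited and lipid-associated macrophage genes 14 fell (median -3.37), among them Itgam, the integrin CD11b, at -3.37 (edgeR adjusted p = 9.5e-07) and the chemokine receptor Cx3cr1 at -3.07 (edgeR adjusted p = 7.84e-07). The recruited list summed to 47.8 to 109 FPKM in WT_NASH and 728 to 1110 in Ad_GFP_HFLMCD, on the scale where the median gene was also lower in WT_NASH. None of the genes in the recruited list was at 0 in all livers of a group. Ptprc was -2.73 (edgeR adjusted p = 5.39e-06), and 7 of 8 T and NK cell markers fell (median -2.16).

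Of 8 Kupffer cell transcription factors 6 fell and 1 rose, with Spi1, which encodes PU.1, at -2.51 (edgeR adjusted p = 1.23e-05) and Irf8, its partner in monocytes and macrophages, at -1.72 (edgeR adjusted p = 5.7e-05). Niche signals had 7 of 13 tested genes lower, with Tgfb1, a growth factor for Kupffer cell identity, at -2.01 (edgeR adjusted p = 1.08e-05) and Csf1, the ligand of Csf1r, at -1.38 (edgeR adjusted p = 1.92e-05). Csf2 was listed at 0 in all NASH livers. Of 13 genes for the uptake of dying cells 10 fell and 2 rose (median -0.69), with the bridging protein Mfge8 at -2.36 (edgeR adjusted p = 6.31e-06) and the receptor Axl at -2.23 (edgeR adjusted p = 1.83e-05).

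Of the genes that handle haemoglobin and iron beside Cd163, 3 of 8 fell, beside 30.9% of all tested genes. Among them were Hmox1 and the iron exporter Slc40a1 (-0.62, edgeR adjusted p = 0.00566), which are both also in the list of other tissue macrophage genes. Sinusoidal endothelium markers had 0 of 8 called by edgeR, 0 at an unadjusted p below 0.05 (63.5% of all genes) and a median of 0.01. The lowest p among them had the scavenger receptor Stab2, at -0.38 (adjusted p = 0.104), which was called at -0.83 with limma on log2(FPKM + 1) (adjusted p = 0.00144). All 9 hepatocyte markers rose (median 1.09), with the plasma carrier Ttr at 1.24 (edgeR adjusted p = 3.05e-05) and the transcription factor Hnf4a at 1.09 (edgeR adjusted p = 4.98e-05). Stellate cell markers had 4 lower and 1 higher of 8, neutrophil markers 4 lower of 5 tested, dendritic cell markers 6 lower of 8, B cell markers 3 lower and 1 higher of 6 tested, and cholangiocyte markers 3 lower of 6. The part of other macrophages and leukocytes in the values of Adgre1, Csf1r, Marco and Cd5l was not tested.

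**Figure D4:**
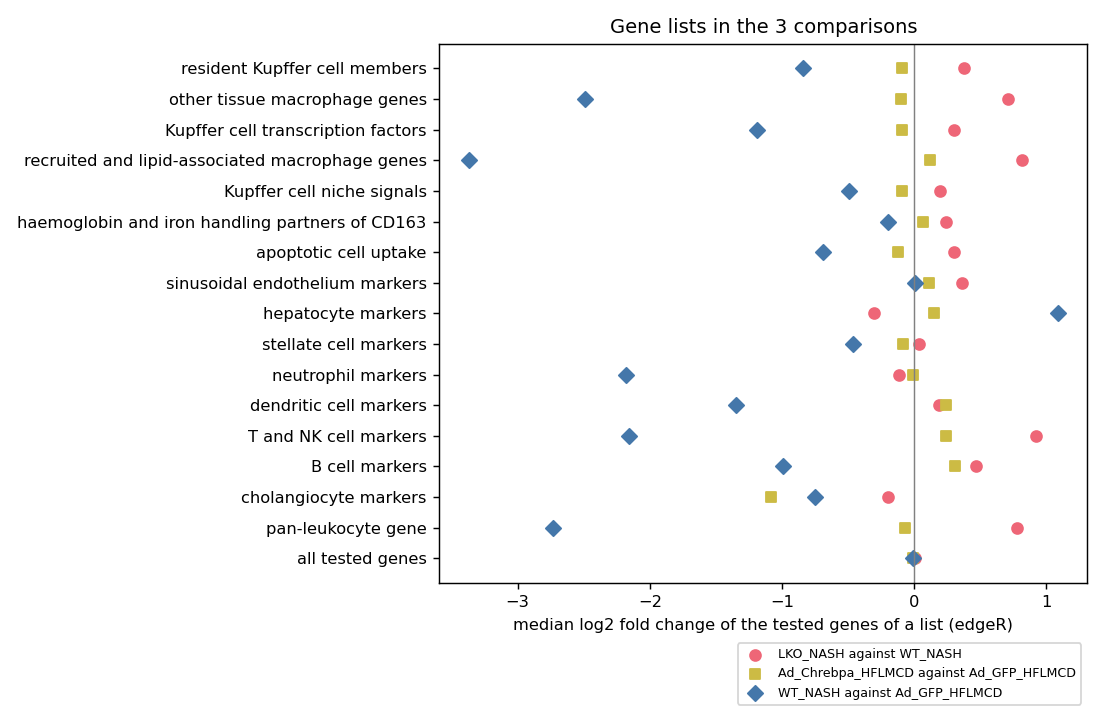
Median log2 fold change (horizontal axis, edgeR) of the tested genes of each list (rows) in the deletion, overexpression and control-group comparisons, with all tested genes in the bottom row near 0. The markers lie at 0.38, -0.09 and -0.84, and the recruited macrophage list lies at 0.82, 0.12 and -3.37.

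The markers were also compared with each other after the mean of each group was subtracted from the log2 CPM, so that only differences between livers of a group remained. Pearson's r over the 16 livers is given for the 36 pairs as a description. All markers of a liver share its library and its scaling. The highest r was that of Adgre1 with Csf1r, at 0.99. Clec4f with Folr2 and Vsig4 with Folr2 each reached 0.96, Clec4f with Vsig4 0.94, and Cd5l with Adgre1 0.94. Timd4 was closest to Marco (0.89) and to Cd163 (0.79). Cd163 was weakly related to Adgre1 (0.23), Csf1r (0.24) and Cd5l (0.30). Marco had 0.78 with Folr2, 0.75 with Vsig4, 0.74 with Clec4f, 0.73 with Cd5l and 0.69 with Cd163.

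**Figure D5:**
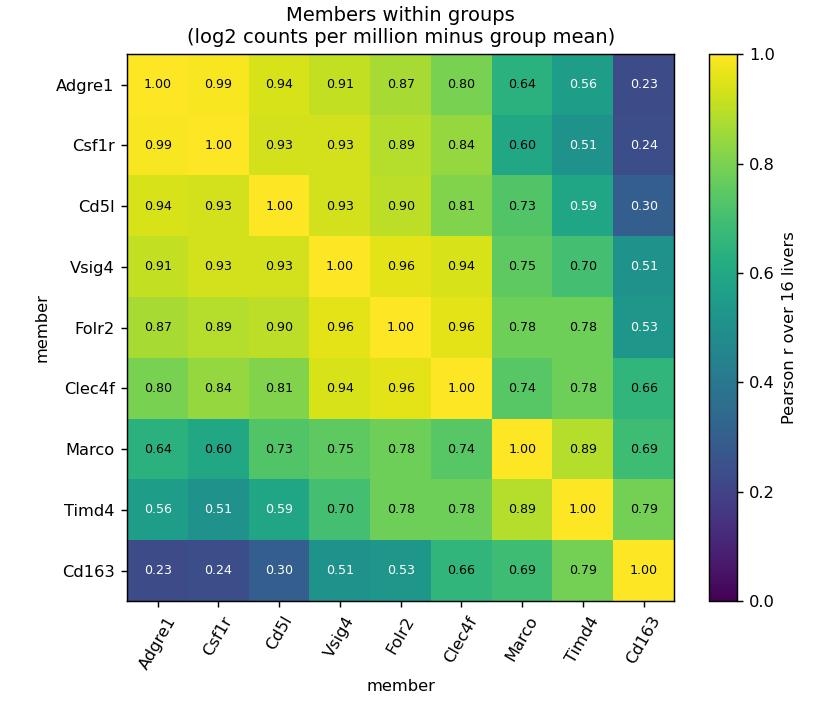
Pearson's r (colour and number) between the markers (both axes) over 16 livers, on log2 CPM with each group's mean subtracted. Adgre1, Csf1r, Cd5l, Vsig4, Folr2 and Clec4f form a block with values of 0.80 and above. Cd163 goes down to 0.23 with Adgre1 but reaches 0.79 with Timd4.

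The same livers were often the highest or lowest of their group across markers. The part of single livers in the correlations was not tested. Liver 10 was the highest of Ad_GFP_HFLMCD in 8 of the 9 markers and liver 12 the lowest in all 9. Liver 13 was the lowest of Ad_Chrebpa_HFLMCD in all 9, and liver 16 the highest in 6. Their library totals were within 29640300 to 36163207, a narrower range than in the NASH groups.

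The genes whose variation within groups was most like the mean of the 9 markers were sought among 11924 genes that averaged an FPKM of 0.5 or more. The 8 highest correlations were those of Cfp (r = 0.97), Cd300e (0.94), Adgre4 (0.93), Dysf (0.93), Pram1 (0.93), Ptgs1 (0.92), Il6st (0.92) and Fpr1 (0.91), over 16 livers. Cfp encodes properdin, a plasma protein that stabilises the alternative complement pathway. Its mean FPKM was 9.37 in WT_NASH and 14.7 in LKO_NASH, then 34.9 in Ad_GFP_HFLMCD and 25.6 in Ad_Chrebpa_HFLMCD. Adgre4, a relative of Adgre1, had 0.655, 1.09, 3.88 and 2.64 in the same order, and Fpr1, a receptor for formylated bacterial peptides, had 1.19, 1.87, 6.88 and 3.21. Il6st, the signal-transducing receptor of the interleukin-6 family, differed from these in its even group means of 29.5, 30.6, 30.8 and 32.5.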

How the data were processed

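Whole-liver RNA of 16 mouse samples was sequenced as 1 library each. The deposited tables give an expected count and an FPKM per gene, per the file headers. Expected counts are the authors' estimates of reads per gene, not normalised, and the deposited FPKM is scaled by the authors to transcript length and library total. The aligner was HISAT2 without a version, per the submitters' processing notes; no counter, build or annotation is given in the sources used here. The lowest listed FPKM was 0.01, and a gene missing from a table was taken as 0. Of 17436 entries, 26 named by a transcript were summed into their gene, which left 17410 genes. Between 25.3% and 27.2% of the expected counts of a library were not whole.

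Rounded expected counts went into edgeR 4.0.16 under R 4.3.3 (two-sided quasi-likelihood F test after filterByExpr and TMM) in 3 fits of 8 livers, over 12786, 13658 and 13488 genes, with biological coefficients of variation of 0.221, 0.126 and 0.164. A gene was called where its p, adjusted by Benjamini-Hochberg over all tested genes, was below 0.05. Log2 fold changes are edgeR's unless another tool is named. The Timd4 to Clec4f ratio was compared by exact permutation of the livers, adjusted over 2 tests. Replicate numbers 9 to 24 come from the sample titles. Libraries of the same group differed by a chi-square per degree of freedom of at least 17.2, far above sampling noise, so none was counted as a copy.

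The members, the 15 other gene lists (145 of 147 distinct genes over all 16 lists found, Ly6g and Ighm not listed) and the tests were chosen with earlier results of these data known. Genes were named by rule: the 9 members, Mlxipl, up to 2 called genes per list and comparison with the lowest adjusted p, or the 1 with the lowest p where none was called, and the 8 genes most alike. Alternatives used DESeq2 1.42.0 and limma 3.58.1. Other steps used Python 3.11.15, pandas 2.3.3, NumPy 2.4.6, SciPy 1.17.1 and matplotlib 3.10.9. The edgeR step was tested on simulated data.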

Additional observations from a re-analysis of the deposited data

Results flagged for a closer look

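Of 40 checks, of the 9 markers and the Timd4 to Clec4f ratio in each group of 4 livers, 3 found a liver far from the other 3 of its group. Chance flags about 1 in 20 groups. Adgre1 was 37.85 FPKM in Ad_GFP_HFLMCD liver 10, with a gap to the nearest liver of 0.913 of the whole range (above Dixon's 95% limit for 4). Csf1r was 98.44 FPKM in the same liver, at 0.879 of the range. Csf1r was 8.45 FPKM in LKO_NASH liver 23, below the others of its group, at 0.862 of the range. Without liver 10 the edgeR log2 fold changes under Chrebpα virus were -0.17 for Adgre1 and -0.09 for Csf1r, against -0.51 and -0.35 with it. Without liver 23 they were 1.19 and 0.86 in LKO_NASH, both with an edgeR adjusted p of 0.297.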

How the results depend on the processing

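No paired analysis was possible because the replicate numbers in the titles run from 9 to 24 and no number is shared between groups. The 9 markers had 0 calls in both ChREBPα comparisons under every alternative run, leaving out each liver included (0 to 0). In the control-group comparison 7 were called, 5 to 7 when a liver was left out, and 6 with limma-voom, with limma on either FPKM scale and with all 16 livers in 1 fit. The Timd4 to Clec4f log2 ratio difference was 1.00 to 1.39 in Ad_Chrebpa_HFLMCD and -1.18 to -0.30 in LKO_NASH when a liver was left out, where 3 against 4 cannot give a p below 0.0571. In LKO_NASH, Timd4 reversed to -0.49 with limma-voom, -0.06 with limma on log2(FPKM + 1), -0.28 on log2(FPKM + 0.1) and -0.73 without livers 19 and 21 together. With limma-voom, Marco was 0.02 in Ad_Chrebpa_HFLMCD and Folr2 0.03 in WT_NASH against Ad_GFP_HFLMCD. Leaving out a liver reversed these: in LKO_NASH Timd4 (-0.66 to 0.40), Cd163 (-0.69 to 0.03), Mlxipl (-0.10 to 0.21) and Tspan8 (-0.87 to 0.18). In Ad_Chrebpa_HFLMCD the ranges were Clec4f -0.40 to 0.18, Vsig4 -0.33 to 0.27, Marco -0.28 to 0.27, Cd163 -0.04 to 0.99, Folr2 -0.08 to 0.39, Cd8a -0.06 to 0.62 and Ptprc -0.19 to 0.09. In the control-group comparison they were Clec4f -0.42 to 0.17 and Folr2 -0.26 to 0.24. Over all genes, calls in LKO_NASH went from 0 to 158 with DESeq2, 152 with all 16 livers in 1 fit, 420 without liver 21 and 1525 without livers 19 and 21. Calls in Ad_Chrebpa_HFLMCD went from 1110 to 1944 with DESeq2, 336 with all 16 livers in 1 fit, and 400 (without liver 16) to 1722 (without liver 14). The share of calls that were higher there went from 60.9% to 30.2% with limma on log2(FPKM + 1) and 70.2% with all 16 livers in 1 fit. Where values changed, the cause was not tested. Depth limits Timd4 (25 to 219 counts a liver) and Cd163 (20 to 404).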

Other observations

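Other genes of the lists had these values. In LKO_NASH, where the main edgeR fit called none, the lowest p had Maf (0.51, a transcription factor of Kupffer cells), Tgfb1 (0.76, adjusted p = 0.305), the ferritin light chain gene Ftl1 (0.50) and Gas6, a bridging protein for dying cells (0.50). Tgfb1 passed in DESeq2 at 0.76 (adjusted p = 0.00928), as did Ftl1 (adjusted p = 0.0433) and the hepatocyte gene Ahsg (-0.66, adjusted p = 0.0449). The endothelial receptor Gpr182 was 0.59, the stellate cell lectin Colec11 0.18, the neutrophil receptor Csf3r 0.51, the dendritic cell receptor Flt3 0.75, Jchain 0.61 and the duct gene Tspan8 -0.33. With all 16 livers in 1 fit edgeR called Tgfb1 (adjusted p = 0.0362). Without liver 21 edgeR called Maf, Tgfb1, Gas6 and Ahsg (adjusted p = 0.0379, 0.0474, 0.0389 and 0.0425). Without livers 19 and 21 together it called these and also Itgax, Gpr182 and Csf3r (adjusted p = 0.041, 0.0395 and 0.041). Camp, of neutrophil granules, was listed at 0 in all LKO_NASH livers.

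In Ad_Chrebpa_HFLMCD, Gas6 (-0.24), Dnase1l3 of the endothelium (0.26), Pdgfrb of stellate cells (-0.26), Cxcr2 of neutrophils (0.15) and Cd8a of T cells (0.40) were not called by edgeR. In WT_NASH against Ad_GFP_HFLMCD, edgeR called Pdgfrb (-1.27) and Dcn (-0.79), a matrix proteoglycan, and the neutrophil genes S100a9 (-2.32) and Csf3r (-2.04). It also called the dendritic cell genes Ccr7 (-1.68) and Siglech (-1.61), the T cell genes Cd3g (-2.38) and Cd8a (-1.84), the B cell genes Cd22 (-1.64) and Cd79b (-1.38), and the duct genes Cftr (-3.13) and Sox9 (-0.94). Mlxipl was 1.22 in that comparison (edgeR adjusted p = 0.000153).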
